A study of Mus musculus with 2 samples.

Results

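Cholesterol synthesis and its control by the transcription factor SREBP2 were followed through 26 genes in small intestine from IL-9 transgenic (IL-9Tg) mice set against wild-type (WT) mice. The genes were taken by name, as 19 enzymes of the route from acetyl-CoA to cholesterol and its isoprenoid branch, 4 genes of the SREBP2 sensor and 3 other sterol-responsive genes. The list does not hold every gene of the pathway. Of the 26 genes, 25 had a probe set (a group of short probes for one transcript) under their own symbol, out of 18193 genes so named on the array, and Acat2, the cytosolic acetoacetyl-CoA thiolase, was not analysed here. All 25 passed the expression filter, which asked that the higher of the log2 values of a gene reach the median of all values, 6.31 (an intensity of 78.5). It left 11861 genes.

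One array carried RNA from a pool of 3 IL-9 transgenic mice and the other RNA from a pool of 3 wild-type mice. Both pools came from animals 6 to 8 weeks old on a BALB/c background that received no treatment, and IL-9 is a cytokine of type 2 immunity that promotes mast cell growth. The labels do not name the promoter that drives the transgene or the segment of small intestine taken. With 1 array in each group the spread between mice is unknown, so no p-value is given and every value describes these 2 pools.

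Cholesterol is built in the cytosol and endoplasmic reticulum from acetyl-CoA, first through mevalonate to the isoprenoid farnesyl pyrophosphate, then through squalene and lanosterol to the sterol itself. When sterols in the endoplasmic reticulum are scarce, the escort protein SCAP carries SREBP2 to the Golgi, where it is cleaved, and its released part switches on most genes of the route. When sterols are plentiful, INSIG proteins hold SCAP back. The small intestine makes cholesterol and also absorbs it from bile and food, and crypt cells need it for new membranes.

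Differences below are log2(intensity + 1) in the IL-9Tg pool minus that in the WT pool, and folds are on this scale. Fdps, which makes farnesyl pyrophosphate, was 1.71-fold higher in the IL-9Tg pool, and Sqle, the squalene epoxidase that carries out the first oxygenation on the way to sterols, was 1.52-fold higher. These were the 2 of 25 genes at least 1.5-fold higher, where 1.68% of all genes past the filter were that much higher. None of the 25 was 1.5-fold lower, against 1.45% of all genes. None was 2-fold higher or lower, where 0.607% of all genes were higher and 0.202% lower. In all, 17 of the 25 lay above 0 and 8 below, a share of 68.0% above 0 where all genes had 51.4%. The median difference was 0.08 over the 25 genes and 0.0082 over all genes past the filter.

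At 1.3-fold, a size set after the values were seen, 5 of the 25 genes were higher in the IL-9Tg pool, where 5.51% of all genes were. They were Fdps, Sqle, Mvk, Nsdhl and Msmo1, the last just inside at 1.33-fold, while Lss was outside at 1.23-fold. As the mean over probe sets, and with probe sets that can match more than 1 transcript dropped, 4 genes passed. Msmo1 came to 0.22 in the first setting. In the second it had no value, because its remaining probe set lay below the filter. Ggps1 alone was 1.3-fold lower, where 5.24% of all genes were. Within a gene, differences varied between probe sets with an SD of 0.23 over 4963 genes and 0.24 over the 11 genes of this list that had more than 1 probe set past the filter. No array was repeated, so repeat error is not measured in these data. The SD compares different probe sets on the same arrays, leaves out the spread between mice and serves only as a yardstick of size. By that yardstick 6 of the 25 genes were higher by more than 1 SD, 1 was lower by more and 18 lay within it. Of all genes, 14.8% were higher by more than 1 SD, 13.8% were lower and 71.4% lay within it. The number of listed genes within 1 SD was thus near the share of all genes, while those beyond it lay more on the higher side than all genes did.

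**Figure D1:**
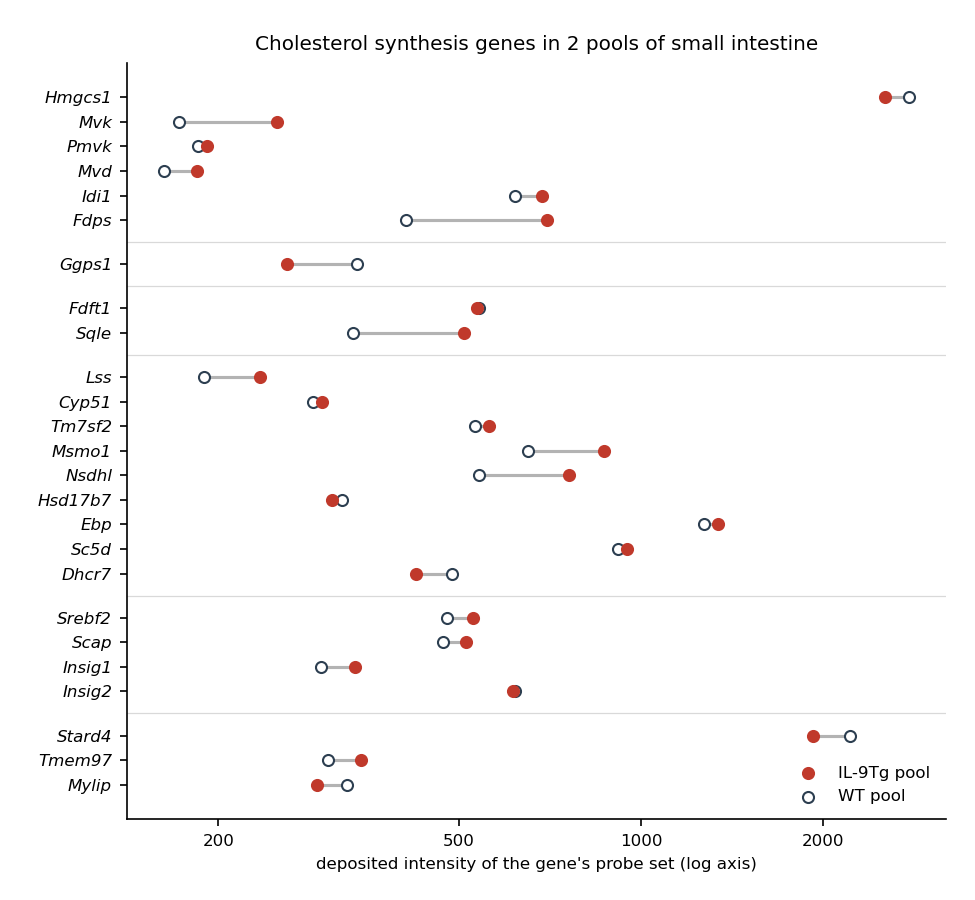
Deposited intensity (log axis) of each of the 25 genes in the IL-9Tg pool (filled) and the WT pool (open), 1 array each, grouped by step of the pathway from top to bottom. The longest lines are those of Fdps (698 in the IL-9Tg pool, 408 in the WT pool) and Sqle (509 in the IL-9Tg pool, 334 in the WT pool). Intensities of different genes come from different probes and are not to be ranked.

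**Figure D2:**
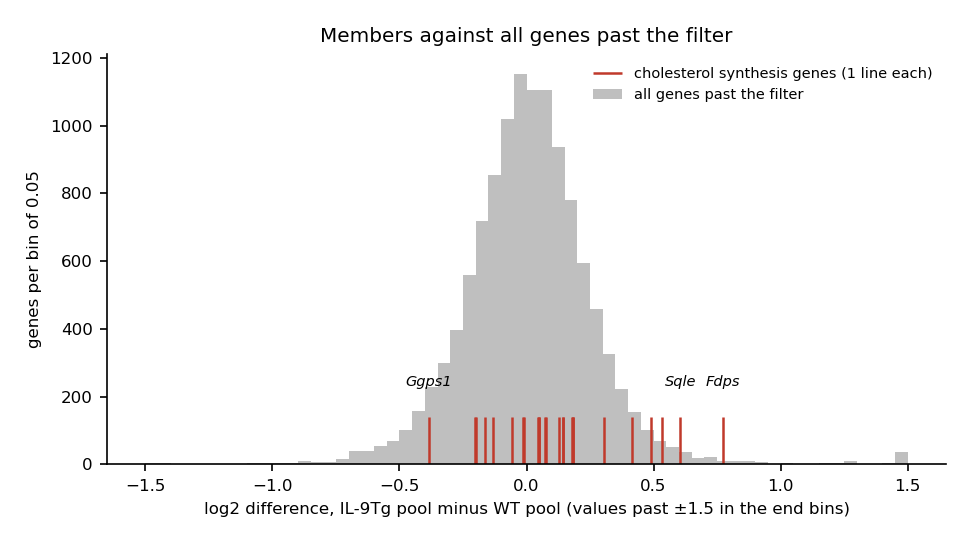
Log2 difference (IL-9Tg pool minus WT pool) of 11861 genes past the filter as a histogram, with 1 line for each of the 25 genes. Most lines lie in the bulk of the histogram, 17 to the right of 0, with Fdps at 0.77 farthest to the right and Ggps1 at -0.38 farthest to the left. Scaling on the spike-in controls would move all lines and bars to the right by 0.25.

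The arrays differed in ways that touch these small values. The 18 probe sets for the hybridisation spike-ins (bioB, bioC, bioD and cre, bacterial and phage transcripts added to the sample) were all lower on the transgenic array, by a median of 0.25 on the log2 scale. If the arrays were scaled on them, every difference given here would be higher by 0.25, the median of all genes would be 0.26, and 24 of the 25 genes would lie above 0, with Ggps1 the exception, where 87.9% of all genes would. The 3′ to 5′ signal ratio of actin, a sign of RNA integrity, was 1.33 in the IL-9Tg pool and 1.61 in the WT pool, and that of Gapdh was 1.08 in the IL-9Tg pool and 1.22 in the WT pool. The only probe set of Il9 read 62.2 in the IL-9Tg pool and 71.6 in the WT pool, below the filter in both pools. What the transgene holds of the gene is not stated in the labels, so this probe set does not check them.

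Promoter sequence was looked at because SREBP2 acts on these genes together with the CCAAT-binding factor NF-Y and with Sp1, which binds GC boxes. RefSeq promoters of mouse build GRCm38.p6 were found for 22 of the 26 genes, as 28 entries, and Fdps, Fdft1, Sqle and Stard4 had no entry. The 250 bases before each start were searched on both strands for the sterol element TCACNCCAC, the CCAAT box CCAAT and the GC box GGGCGG. The CCAAT box was in 71.4% of the 28 entries, against 34.5% of 12229 entries of genes past the filter and 33.8% of all 32851 entries. The GC box was in 78.6% of the 28, against 55.8% of the entries of genes past the filter and 32.7% of all. The sterol element in this spelling was in 1 of the 28, that of Hmgcs1, and in 1.05% of all entries. A match is a description of these letters and not a site.

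A set of 3 promoters is printed, those of the 2 listed genes with the largest differences among those with an entry, Mvk and Nsdhl, and that of Hmgcs1, which holds the sterol element. They were chosen after the values were seen. Capitals mark the motif matches on either strand, none of which overlap, and each sequence is on the plus strand and ends at the base before the start. Mvk lies at chr5:114444019-114444268, with 5 CCAAT and 2 GC box matches. Nsdhl lies at chrX:72918271-72918520, with 2 CCAAT and 1 GC box matches. Hmgcs1 lies at chr13:119690101-119690350, with 3 CCAAT and 2 GC box matches and with the sterol element starting 137 bases before the start.
Mvk: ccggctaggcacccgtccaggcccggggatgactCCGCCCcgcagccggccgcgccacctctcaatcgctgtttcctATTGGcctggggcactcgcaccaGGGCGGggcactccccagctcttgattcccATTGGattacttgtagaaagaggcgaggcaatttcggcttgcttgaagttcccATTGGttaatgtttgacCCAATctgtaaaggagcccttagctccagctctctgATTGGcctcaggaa
Nsdhl: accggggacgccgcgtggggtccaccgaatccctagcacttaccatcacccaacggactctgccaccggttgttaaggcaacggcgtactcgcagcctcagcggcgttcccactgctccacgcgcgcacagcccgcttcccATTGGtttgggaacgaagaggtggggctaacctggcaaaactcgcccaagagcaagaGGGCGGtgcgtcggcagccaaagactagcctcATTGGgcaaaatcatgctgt
Hmgcs1: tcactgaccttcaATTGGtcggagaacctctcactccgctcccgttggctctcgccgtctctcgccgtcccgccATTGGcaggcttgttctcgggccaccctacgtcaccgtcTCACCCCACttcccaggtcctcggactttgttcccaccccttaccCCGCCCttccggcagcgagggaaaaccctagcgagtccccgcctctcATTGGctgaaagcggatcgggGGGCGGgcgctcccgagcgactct

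The early enzymes, from acetyl-CoA to farnesyl pyrophosphate, were represented by 6 measured genes. Of these, 5 lay above 0, where 51.4% of all genes past the filter did, and their median was 0.16. Fdps, farnesyl pyrophosphate synthase, read 698 in the IL-9Tg pool and 408 in the WT pool, a difference of 0.77. Of the 11861 genes past the filter, 105 had a difference at least as high, Fdps included. Its other probe set read 11.3 in the IL-9Tg pool and 9.95 in the WT pool, far under the filter, and the mean over both gave 0.47, short of 1.5-fold.

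Mvk, mevalonate kinase, read 250 in the IL-9Tg pool and 172 in the WT pool, a difference of 0.53. Its other probe set read 235 in the IL-9Tg pool and 178 in the WT pool, a difference of 0.40, so both probe sets were higher in the IL-9Tg pool by more than the SD of 0.23. With 5 matches, its promoter printed above had the most CCAAT matches of the 28 entries.

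The kinase and decarboxylase that follow Mvk did not share its size of difference. Pmvk, phosphomevalonate kinase, read 191 in the IL-9Tg pool and 185 in the WT pool, a difference of 0.05. Mvd, the decarboxylase that makes isopentenyl pyrophosphate, read 184 in the IL-9Tg pool and 163 in the WT pool, a difference of 0.18, and its other probe set differed by 0.06. All 3 of these values lie within the SD between probe sets.

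Hmgcs1, the cytosolic synthase that precedes mevalonate, had probe sets in both directions. Its probe set of highest mean read 2524 in the IL-9Tg pool and 2765 in the WT pool, a difference of -0.13. The 3 others past the filter differed by 0.14, 0.02 and 0.60. The last of these read 848 in the IL-9Tg pool and 559 in the WT pool, past 1.5-fold in this probe set alone, so no direction is given for Hmgcs1. Idi1, the isomerase of isopentenyl pyrophosphate, likewise differed by 0.14 in one probe set (685 in the IL-9Tg pool, 620 in the WT pool) and by -0.29 in the other (234 in the IL-9Tg pool, 287 in the WT pool).

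Ggps1, which turns farnesyl pyrophosphate into the geranylgeranyl donor for protein prenylation, had the lowest value of the list in its probe set of highest mean. It read 259 in the IL-9Tg pool and 339 in the WT pool, a difference of -0.38 and 1.31-fold lower. The 3 others differed the opposite way, by 0.21, 0.47 and 0.32, and the mean over all 4 was 0.15. The single 1.3-fold lower value of the list therefore rests on 1 of 4 probe sets. The 3 others are of a kind that can match more than 1 transcript, and this one is not. With such probe sets dropped, Ggps1 stayed at -0.38, so no direction is given for it.

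**Figure D3:**
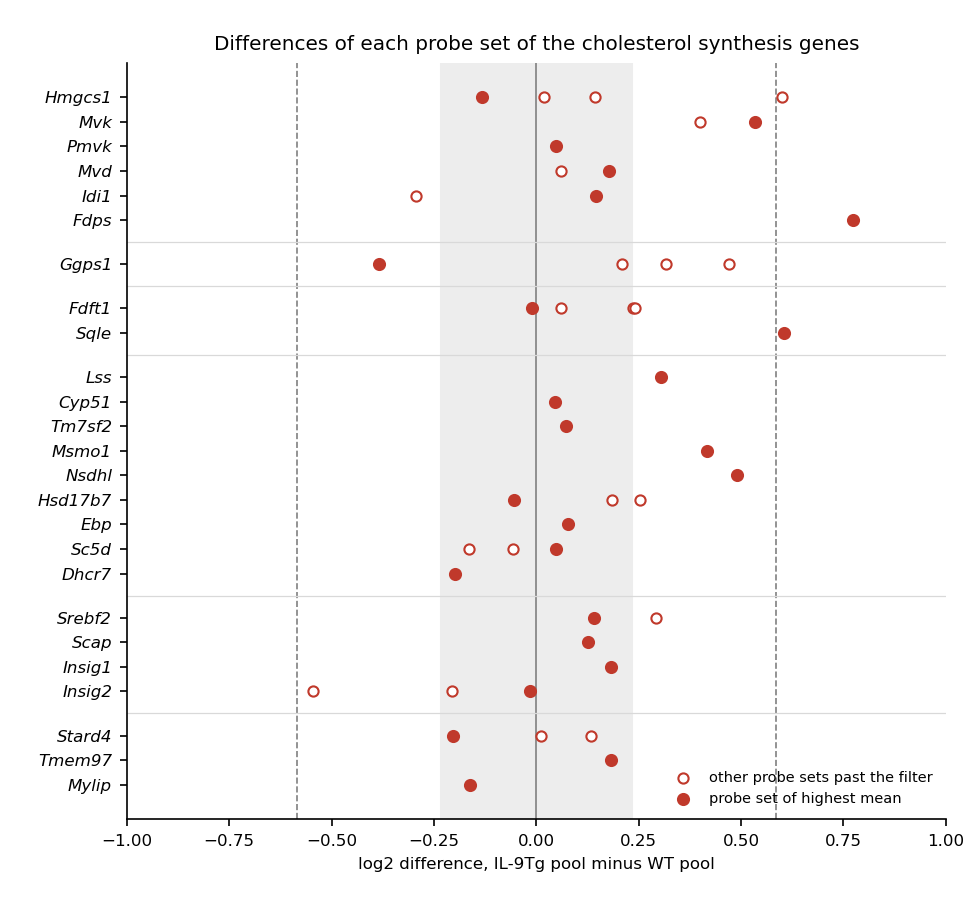
Log2 difference (IL-9Tg pool minus WT pool) of every probe set past the filter, by gene, with the probe set of highest mean filled and the others open. The grey band is 1 SD between probe sets of one gene (0.23) and the dashed lines mark 1.5-fold. Open and filled points lie on both sides of 0 in 7 genes, among them Hmgcs1 and Ggps1, while Mvk, Mvd and Srebf2 have all points above 0 and Insig2 all below. Scaling on the spike-in controls would move every point to the right by 0.25.

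The squalene steps held the other gene past 1.5-fold. Sqle, with 1 probe set, read 509 in the IL-9Tg pool and 334 in the WT pool, a difference of 0.60, and 182 genes past the filter had one at least as high, Sqle included. With a pseudocount of 16 the difference was 0.58, just under 1.5-fold. Fdft1, squalene synthase, which joins farnesyl units just before the step of Sqle, read 534 in the IL-9Tg pool and 539 in the WT pool, a difference of -0.01, in a probe set that can match other transcripts. Its 3 other probe sets differed by 0.24, 0.06 and 0.24. With probe sets that can match more than 1 transcript dropped, the gene stood at 0.24, just beyond the SD between probe sets.

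Of the 9 enzymes from lanosterol to cholesterol, 7 lay above 0 and 2 below, and their median was 0.07. Of all genes past the filter, 51.4% lay above 0. The largest values belonged to Nsdhl and Msmo1. Both help strip methyl groups from the sterol ring, as do Hsd17b7 and Cyp51, which differed by -0.06 and 0.05. Nsdhl, the dehydrogenase of that demethylation, read 759 in the IL-9Tg pool and 540 in the WT pool, a difference of 0.49. Msmo1, the methyl sterol monooxygenase that acts before it, read 868 in the IL-9Tg pool and 650 in the WT pool, a difference of 0.42. Hsd17b7, the ketosteroid reductase of the same reaction series, read 308 in the IL-9Tg pool and 320 in the WT pool, a difference of -0.06, in a probe set that can match other transcripts, while its 2 others past the filter differed by 0.25 and 0.19. Nsdhl had 1 probe set, and Msmo1 had 1 past the filter, which can match more than 1 transcript.

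Lss, which closes the rings to form lanosterol, read 234 in the IL-9Tg pool and 190 in the WT pool, a difference of 0.30 and 1.23-fold higher. Its probe set can match other transcripts, and 2 dimmer ones below the filter differed by 0.03 and 0.32. The other enzymes of this stretch lay within the SD between probe sets. Cyp51, the demethylase of lanosterol, differed by 0.05 (296 in the IL-9Tg pool, 287 in the WT pool) and Tm7sf2, a sterol reductase, by 0.07 (559 in the IL-9Tg pool, 532 in the WT pool).

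The last steps showed no larger difference. Ebp, the sterol isomerase, differed by 0.08 (1340 in the IL-9Tg pool, 1269 in the WT pool). Sc5d, the desaturase that adds a double bond to the ring, differed by 0.05 in its brightest probe set (946 in the IL-9Tg pool, 914 in the WT pool), and its other probe sets by -0.16 and -0.06. Dhcr7, the reductase that ends one branch of the route, read 424 in the IL-9Tg pool and 487 in the WT pool, a difference of -0.20 that would be 0.05 with scaling on the spike-ins.

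The 4 genes of the sterol sensor lay within the SD between probe sets in their brightest probe sets, but Srebf2 and Insig2 had others beyond it. Srebf2, which encodes SREBP2 and is its own target, read 527 in the IL-9Tg pool and 478 in the WT pool, a difference of 0.14, and its other probe set differed by 0.29. Scap differed by 0.13 (513 in the IL-9Tg pool, 470 in the WT pool). SREBP2 is set by cleavage of the protein, which an array does not measure.

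The paralogs Insig1 and Insig2, which both hold SCAP in the endoplasmic reticulum, lay on different sides of 0. Insig1, a target of SREBP2, read 336 in the IL-9Tg pool and 296 in the WT pool, a difference of 0.18. Insig2 read 613 in the IL-9Tg pool and 619 in the WT pool, a difference of -0.02, and its 2 other probe sets differed by -0.21 and -0.55. The last of these read 338 in the IL-9Tg pool and 494 in the WT pool, and the mean over all 3 was -0.26. Among genes of the list with more than 1 such probe set, Insig2 alone had all of them below 0, though the highest, with scaling on the spike-ins, would be 0.24.

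The other sterol-responsive genes gave values within the SD between probe sets. Stard4, a cytosolic carrier of cholesterol, read 1923 in the IL-9Tg pool and 2215 in the WT pool, a difference of -0.20, with 0.01 and 0.13 in its other probe sets. Tmem97, a sterol-regulated membrane protein of the endoplasmic reticulum, differed by 0.18 (344 in the IL-9Tg pool, 303 in the WT pool). Mylip, a ubiquitin ligase switched on by liver X receptors when sterols are plentiful, differed by -0.16 (291 in the IL-9Tg pool, 326 in the WT pool). The values of Stard4 and Mylip would be 0.05 and 0.09 with scaling on the spike-ins.

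Over all probe sets of the list past the filter, 33 of 46 lay above 0, where 52.5% of the 19983 named probe sets past the filter did. Of these 46, 3 were 1.5-fold higher, in Fdps, Sqle and Hmgcs1, and 0 were 1.5-fold lower, where 2% of all named probe sets past the filter were higher and 1.61% lower. Of the 11 genes with more than 1 of these, 3 had all above 0 (Mvk, Mvd and Srebf2), 1 had all below and 7 had both. Of the 14 genes with 1 probe set past the filter, 12 lay above 0, where 51.4% of all genes past the filter did. Among the 12 are Fdps, Sqle, Nsdhl and Msmo1. So 4 of the 5 genes at least 1.3-fold higher have no second probe set past the filter to set beside the first.

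Neighbouring pathways were described in the same way, from lists drawn up with earlier results of these data known. Fatty acid synthesis, driven by the sister factor SREBP1, had 3 of 17 genes past the filter at least 1.5-fold higher, 0 lower and a median of 0.21. Of all genes past the filter, 1.68% were higher by that much and 1.45% lower. In the list 12 genes lay above 0, among them Fasn at 0.27, where 51.4% of all genes past the filter lay above 0. Acly, Acss2 and Fads2, counted above 0, each also had a probe set below 0, the lowest at -0.35, -0.49 and -0.08. The 5 below 0 included Srebf1, the gene of SREBP1, at -0.09 and Acaca at -0.18. Me1, the malic enzyme that supplies NADPH, was 5.27-fold higher (2016 in the IL-9Tg pool, 382 in the WT pool). Scd1, the stearoyl-CoA desaturase, was 1.91-fold higher (373 in the IL-9Tg pool, 194 in the WT pool), and Elovl6, a fatty acid elongase, 1.61-fold higher (1096 in the IL-9Tg pool, 682 in the WT pool). The 3 probe sets of Elovl6 past the filter differed by 0.26 to 0.68, the lowest of them short of 1.5-fold. Whether this list and the cholesterol list differ cannot be tested with 1 array per group.

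Genes of sterol uptake, export and liver X receptors had a median of -0.03 over 13 genes past the filter, with 0 past 1.5-fold either way. Of these, 6 lay above 0, where 51.4% of all genes past the filter did. At 1.5-fold, 1.68% of all genes were higher and 1.45% lower, so 0 in a list this short is near those shares. Abca1, the exporter of cholesterol to apolipoproteins, had the largest difference, -0.44 (817 in the IL-9Tg pool, 1107 in the WT pool), which would be -0.18 with scaling on the spike-ins. Genes that use isoprenoids for prenylation, dolichol and ubiquinone had a median of -0.10 over 13, with 0 past 1.5-fold and 4 above 0. The largest differences there were of nearly equal size and opposite, 0.26 in Rabggtb, a subunit of the Rab geranylgeranyl transferase (645 in the IL-9Tg pool, 537 in the WT pool), and -0.26 in Fntb, a subunit of the farnesyl transferase (218 in the IL-9Tg pool, 261 in the WT pool). The machinery that moves, cleaves and degrades SREBP pathway proteins had a median of 0.10 over 10, with 0 past 1.5-fold and 7 above 0. Sar1b, a GTPase of vesicles that leave the endoplasmic reticulum, had the largest difference there, 0.24 (5628 in the IL-9Tg pool, 4776 in the WT pool).

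**Figure D4:**
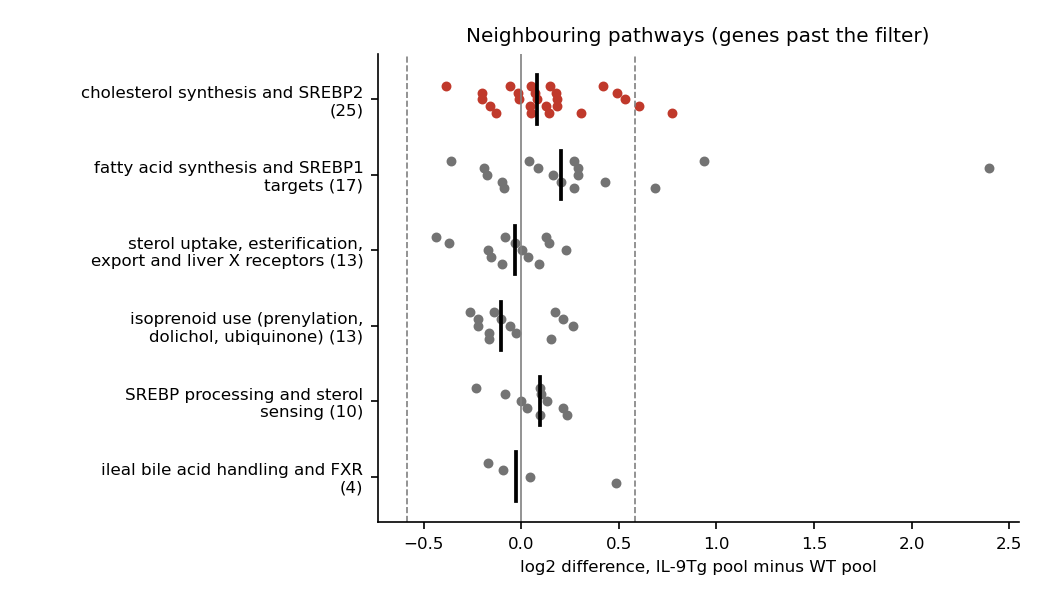
Log2 difference (IL-9Tg pool minus WT pool) of each gene past the filter, by list, with the number of genes in brackets, the list's median as a black bar and 1.5-fold as dashed lines. The cholesterol genes have a median of 0.08 and 2 points beyond 1.5-fold, and the fatty acid list has a median of 0.21 and 3 points beyond it, with Me1 at 2.40. Scaling on the spike-in controls would move every point to the right by 0.25.

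Marker genes of several cell types also differed between the pools, and in RNA from whole tissue fewer cells of a type and less RNA per cell cannot be told apart. Markers of small intestinal epithelium were bright in both pools, with a summed intensity over 9 genes of 80968 in the IL-9Tg pool and 86908 in the WT pool and a median difference of -0.11. Markers of proliferating crypt cells, which make cholesterol for new membranes, summed over 9 genes to 6661 in the IL-9Tg pool and 5606 in the WT pool. The difference in the sum came mostly through Pcna (3287 in the IL-9Tg pool, 2382 in the WT pool). Of 8 past the filter, 5 lay above 0, around a median of 0.31, where 51.4% of all genes lay above 0. Among them 1, Bub1, was 1.5-fold higher (140 in the IL-9Tg pool, 91.3 in the WT pool). The 3 below 0 were Mki67, Mcm2 and Mcm5, at -0.20, -0.02 and -0.24. Mcm2 and Mcm5 each had another probe set above 0, at 0.12 and 0.18. Top2a, counted above 0 at 0.26, had another at -0.31.

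Markers of other cell types differed by more. Of all genes past the filter, 1.68% were 1.5-fold higher and 1.45% lower. A gene can pass the filter through the pool where it is high, so such counts are partly set by the difference itself. Mast cell markers summed over 8 genes to 5828 in the IL-9Tg pool and 1241 in the WT pool, and 5 of 7 past the filter were 1.5-fold higher. Their sum was carried by Mcpt1 (2586 in the IL-9Tg pool, 378 in the WT pool) and Mcpt2 (2364 in the IL-9Tg pool, 319 in the WT pool). Gata2, Cma1 and Tpsb2 differed by 0.24, 0.18 and 0.32, with Tpsb2 below the filter. Cpa3 (194 in the IL-9Tg pool, 78.3 in the WT pool) and Fcer1a (109 in the IL-9Tg pool, 31.0 in the WT pool) were among the 5. Both passed the filter only through the IL-9Tg pool. B cell markers summed over 7 genes to 850 in the IL-9Tg pool and 1531 in the WT pool, and 5 of 6 past the filter were 1.5-fold lower. Among them, Ms4a1 (74.9 in the IL-9Tg pool, 251 in the WT pool) and Cr2 (29.0 in the IL-9Tg pool, 98.3 in the WT pool) stood out. Both passed the filter only through the WT pool. Adipocyte markers summed over 6 genes to 1728 in the IL-9Tg pool and 1202 in the WT pool, with 2 of 5 at least 1.5-fold higher, and exocrine pancreas markers over 6 genes to 15053 in the IL-9Tg pool and 4342 in the WT pool, with 3 of 5 higher. The adipocyte gene Adipoq (91.9 in the IL-9Tg pool, 14.3 in the WT pool) passed the filter only through the IL-9Tg pool. The pancreas sum was carried by the lipase gene Pnliprp2 (8180 in the IL-9Tg pool, 1682 in the WT pool) and the colipase gene Clps (5963 in the IL-9Tg pool, 2099 in the WT pool), while the protease genes Cela1, Cpa1 and Prss2 differed by -0.05, 0.01 and -0.08, with Cpa1 below the filter.

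The liver is a main site of cholesterol synthesis. Hepatocyte markers summed over 9 genes to 5473 in the IL-9Tg pool and 4193 in the WT pool, mostly through Cps1, which the intestine also expresses, and 2 of 5 past the filter were 1.5-fold higher. These were Apoh, apolipoprotein H (233 in the IL-9Tg pool, 98.6 in the WT pool), at 2.35-fold, and Cyp2e1, a cytochrome P450 (106 in the IL-9Tg pool, 37.0 in the WT pool), at 2.83-fold. Cyp2e1 passed the filter only through the IL-9Tg pool. The defining hepatocyte gene Alb, albumin, read 75.3 in the IL-9Tg pool and 63.6 in the WT pool, below the filter in both. The part of crypt cells, liver, fat, mast cells, B cells and pancreas in the values of the cholesterol genes was not tested.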

How the data were processed

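Total RNA (10 µg per pool) was amplified to biotin-labelled cRNA for Affymetrix mouse arrays, per the labels' protocols. The deposited values are intensities on a linear scale, with medians of 78.7 (IL-9Tg) and 78.3 (WT). Per the submitters' processing notes the authors used RMA, which equalises the distributions of arrays, so a change shared by most genes would not show. The depth of an array has no count, and the number of arrays limits the precision. A genome build is not given in the sources used here, and no detection calls were used. Gene names came from a platform annotation table, in which 34945 of 45101 probe sets carried 1 symbol and were not controls. The 932 with several symbols and the 9211 with none name no gene here.

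Each gene was read from its probe set of highest mean, with the others as a check, as log2(intensity + 1), using Python 3.11.15, pandas 2.3.3 and NumPy 2.4.6. No test was made, because each group is 1 array. The counting step was tested on simulated data. Results were recomputed with a gene's probe sets averaged. They were also recomputed without probe sets that can match more than 1 transcript, also of the same gene, where a gene had others. Further settings were no filter or one at the 75th percentile, and pseudocounts of 0 and 16. The rest were quantile normalization, and differences centred on all genes or on the spike-ins. The members, lists and thresholds were chosen with earlier results of these data known. All 26 members could be named, and from each other list those past 1.5-fold or the largest difference. Marker lists gave sums, with single genes named where a result needed them. Alb, Cps1, Fntb, Srebf1, Fasn, Acaca, Acly, Acss2, Fads2, Pcna, Mki67, Top2a, Mcm2, Mcm5, Gata2, Cma1, Tpsb2 and the named pancreas genes were named after their values were seen.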

Additional observations from a re-analysis of the deposited data

How the results depend on the processing

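No paired analysis was possible because each group has 1 array, and no array could be left out. Under 9 alternatives, 15 of the 25 genes lay above 0 wherever they had a value. Filters and pseudocounts keep the sign of a probe set's difference, and centring shifts all genes alike. Genes with 1 probe set are also unchanged by averaging or dropping probe sets. A constant sign was thus largely fixed in advance and does not measure repeat error. Dhcr7, Insig2, Mylip and Stard4 lay below 0 in all but the scaling on spike-ins, and Fdft1, Ggps1, Hmgcs1, Hsd17b7, Idi1 and Sc5d lay on both sides of 0 over the other settings. The number of genes 1.5-fold higher was 1 as the mean over probe sets (Sqle) and 1 with a pseudocount of 16 (Fdps). With differences centred on the spike-ins, a setting chosen after the data were seen, 5 genes were 1.5-fold higher, 1 was 2-fold higher (Fdps, at 1.03), 12 were 1.3-fold higher and the median was 0.33. In that setting 28.6% of all genes were 1.3-fold higher. There 7.58% of all genes were 1.5-fold higher and 0.379% lower, against 1.68% and 1.45% with the deposited scaling, and the median of the list exceeded that of all genes by 0.07 in both. Whether the spike-ins or the deposited scaling is nearer to the RNA amounts was not tested. Dim signals, and 1 pool per group, limit what these values can show.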

Other observations

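Genes of ileal bile acid handling, which returns the end products of cholesterol to the liver, were read alongside. The bile acid importer gene Slc10a2 read 7.73 in the IL-9Tg pool and 8.03 in the WT pool, the ileal bile acid-binding protein gene Fabp6 read 13.3 in both pools, and the ileal hormone gene Fgf15 read 34.3 in the IL-9Tg pool and 38.8 in the WT pool. All 3 lay below the filter in both pools, and the first 2 lay under the lower quartile of all probe sets, 28.7 in the IL-9Tg pool and 28.5 in the WT pool. Of the 4 genes of this list past the filter, 0 were 1.5-fold higher or lower, where 1.68% of all genes were higher and 1.45% lower. Slc51b, a subunit of the basolateral bile acid exporter, had the largest difference, 0.49 (1590 in the IL-9Tg pool, 1134 in the WT pool), while Slc51a, the other subunit, differed by -0.10 (1661 in the IL-9Tg pool, 1776 in the WT pool).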
